A study of Homo sapiens with 6 samples.

Results

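The genes described here lie in a stretch of the short arm of chromosome 12, from band p13 into p12 (GRCh38, 12715058 to 25108334 from the first to the last of them). They were chosen by position, by a count of at least 10 in 3 or more of the 6 libraries, and without 6 genes of the stretch that belong to other gene groups; the bounds were drawn with the difference between LV and WT libraries in view. Of 180 annotated genes in the stretch, 129 were under the count minimum and 45 became members, out of 19234 genes of the series with such counts and 57500 in the count files. Of the 45 members 35 are protein coding, 5 are pseudogenes, processed ones with near-identical copies elsewhere included, and the others are noncoding RNAs of the lincRNA, antisense, sense-intronic and sense-overlapping kinds.

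RNA was sequenced from 22Rv1, an established human prostate carcinoma cell line. The LV group holds 3 libraries of a 22Rv1 line that came out of a liver metastasis, and the WT group holds 3 libraries of the control line, labelled wild type. The labels give the same RPMI-1640 medium with 10% fetal bovine serum for both groups, no added agent and no number of independent derivations. The design text calls the libraries of a group biological replicates without saying whether they were separate cultures, so p-values measure only the spread between these libraries, and if LV is 1 derived line they do not cover differences between derivations. In such bulk samples, fewer cells that express a gene and less RNA per cell cannot be told apart.

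The short arm of chromosome 12 carries CDKN1B, the gene of the cyclin-dependent kinase inhibitor p27, which holds cells before S phase, and the band around it is a known site of deletion in some prostate cancers. When a stretch of a chromosome is gained or lost, the RNA of many of its genes shifts the same way. DNA copy number was not measured in the files used here.

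The libraries held 28395265 to 53275252 counts. WT replicate 2 stood apart: its gene-wise deviations from the mean of all libraries rose with the GC content of the transcripts (Pearson r = 0.525 over 13230 genes, which are not independent replicates), against r of -0.107 to -0.146 in the other 5 libraries. The members are poorer in GC than other genes, with a median of 43.1% against 48.0% for the rest of chromosome 12 and 49.0% for all genes tested, so where leaving it out changed a member's call, the value without it is given below. Markers of luminal prostate epithelium were present in both groups: KRT8 averaged 1144 ± 17.4 CPM in LV and 659 ± 94.0 CPM in WT, KRT18 677 ± 10.1 CPM in LV and 409 ± 47.4 CPM in WT, and EPCAM 117 ± 1.90 CPM in LV and 104 ± 8.21 CPM in WT. KRT8 and KRT18 rose and EPCAM did not pass, while HOXB13 fell. Of 8 hepatocyte markers 4 were tested, of which 2 rose and 1 fell, and the sum was 65.5 to 68.8 CPM in LV and 43.4 to 54.2 CPM in WT, nearly all of it ALB, while APOA2, TTR, SERPINA1 and CYP3A4 each averaged under 0.2 CPM in both groups. Of 8 stromal, endothelial and leukocyte markers the sum was 21.0 to 23.1 CPM in LV and 20.6 to 24.6 CPM in WT, most of it COL1A1 (18.3 ± 0.219 CPM in LV and 17.5 ± 2.47 CPM in WT). Of these 8, 6 were tested, of which 0 rose and 1 fell, LUM (0.0674 ± 0.0663 CPM in LV and 1.75 ± 0.245 CPM in WT), and CDH5 was at 0 in all 6 libraries. The part of admixed cells in the results below was not tested.

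The fitted values of most of these genes, 34 of the 44 that could be tested, were above 0 in LV relative to WT; 18 rose and 2 fell. The median log2 fold change (LV over WT) of the 44 members that could be tested was 0.31, with quartiles of 0.0248 and 0.76, against 0.0794 for the 1010 tested genes of the rest of chromosome 12 and -0.0075 for all 19255 genes tested. Of the 44, 18 rose and 2 fell in LV (edgeR quasi-likelihood test, adjusted p under 0.05 over all genes tested), where 17.5% of all genes tested were called higher and 21.3% lower, and 22.8% and 17.8% of the rest of chromosome 12. All 3 LV libraries stood above all 3 WT libraries for 26 members and below them for 2, against 26.1% and 27.9% of all genes tested. At least a 2-fold rise was fitted for 9 members and a 2-fold fall for 0, against 4.81% and 9.67% of all genes tested. The stretch was drawn on this same contrast, and the count minimum lets in genes that hold reads in 1 group only, so nothing is read from these shares.

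The values of single members were spread widely around that median. The interquartile range of the log2 fold change was 0.74 among the members and 0.60 in the rest of chromosome 12, and the members ran from -0.92 to 4.78. Along the chromosome, 18 of 43 neighbouring pairs of tested members had opposite signs, and the longest run of 1 sign was 11 genes. Across the 44 members, the log2 fold change had a Pearson correlation of -0.36 with the log2 WT level and -0.21 with the log2 mean TPM. It was 0.0756 with log2 exon length and -0.0395 with GC content. The WT level enters the fold change itself, which pulls their correlation below 0, so nothing is read from it. These values describe 44 genes measured in the same 6 libraries.

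**Figure D1:**
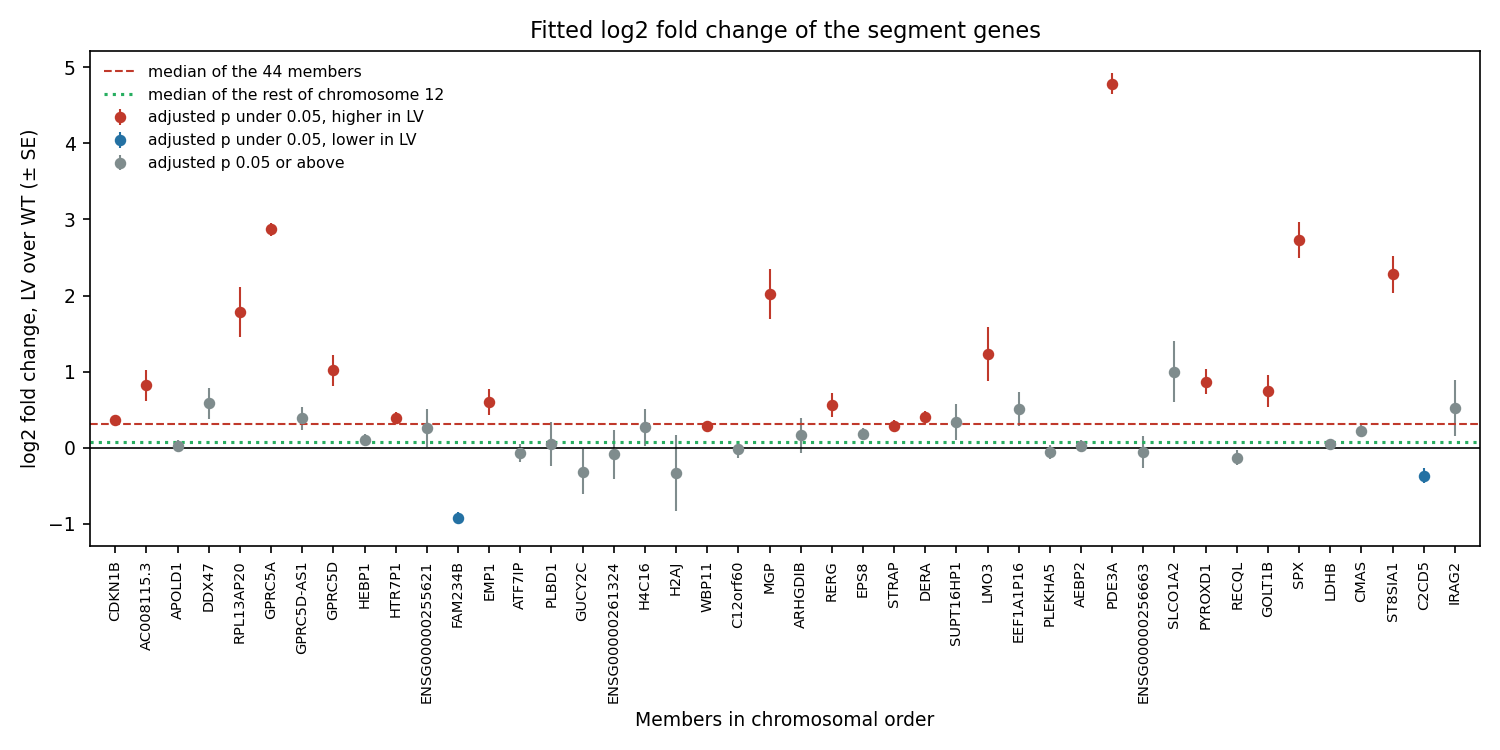
Fitted log2 fold change (LV over WT) with its SE for the 44 tested members, in order along the chromosome; red points rose, blue points fell and grey points did not pass. PDE3A stands highest at 4.78 and FAM234B lowest at -0.92, while the dashed median is at 0.31 and the dotted median of the rest of chromosome 12 at 0.0794.

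PDE3A (ENSG00000172572, chr12:20369245-20684381, plus strand) encodes a phosphodiesterase that breaks down cAMP and is inhibited by cGMP. It had 37.0, 38.2 and 35.1 CPM in LV replicates 1 to 3, against 1.67, 1.19 and 1.14 CPM in WT replicates 1 to 3. The groups lay far apart, with WT low at 54 to 81 reads per library, above the count minimum of 10. The fitted change was 4.78 ± 0.14 (log2, SE), or 27.5-fold higher in LV, and per length the gene stood at 15.4 ± 0.712 TPM in LV and 0.574 ± 0.137 TPM in WT (SD, n = 3 each). The closest relative, PDE3B on chromosome 11, averaged 31.6 ± 0.473 CPM in LV and 36.1 ± 3.76 CPM in WT (log2 fold change -0.19, adjusted p = 0.125 by edgeR), and was named after its values were seen. PDE3B passed as lower in LV without WT replicate 2 (-0.28, adjusted p = 8.48e-07) and after the GC correction (-0.24, adjusted p = 4.58e-04).

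GPRC5A (ENSG00000013588, chr12:12890782-12917937, plus strand) encodes an orphan receptor of epithelial cells that retinoic acid induces. Its level was 37.8, 36.0 and 38.1 CPM in the LV libraries, against 4.94, 5.51 and 4.89 CPM in the WT libraries. All LV libraries agreed closely and none came near WT, for a log2 fold change of 2.87 ± 0.09 (SE), 7.30-fold higher in LV. The neighbouring family member GPRC5D, a plasma cell receptor used as a target in myeloma, was low, with 1.44, 1.68 and 1.57 CPM in LV and 0.618, 0.948 and 0.739 CPM in WT (1.02 ± 0.20). GPRC5D-AS1, on the opposite strand of this locus, overlaps exons of HEBP1, so its reads and those of HEBP1 cannot be told apart without a stated strand setting; it averaged 6.60 ± 1.43 CPM in LV and 5.09 ± 0.285 CPM in WT (0.39 ± 0.15) and did not pass with all libraries; it passed without WT replicate 2 (0.38, adjusted p = 0.0323) or LV replicate 2 (0.50, adjusted p = 0.0441), with no filter (adjusted p = 0.0258) and with the replicate block (adjusted p = 0.0439).

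SPX (ENSG00000134548, chr12:21526307-21537377, plus strand) encodes spexin, a secreted peptide hormone. Its RNA was at 5.50, 4.51 and 5.29 CPM in LV, against 0.700, 0.485 and 1.10 CPM in WT, so the groups did not overlap although the WT level was low. The log2 fold change was 2.73 ± 0.23 (SE), 6.63-fold higher in LV. ST8SIA1 (ENSG00000111728, chr12:22063773-22437041, minus strand), the sialyltransferase that makes the ganglioside GD3, had 1.19, 1.54 and 1.34 CPM in LV and 0.288, 0.331 and 0.209 CPM in WT (2.28 ± 0.24). Both groups were low for this gene, and per length it reached 0.329 ± 0.0431 TPM in LV and 0.0684 ± 0.0131 TPM in WT.

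**Figure D2:**
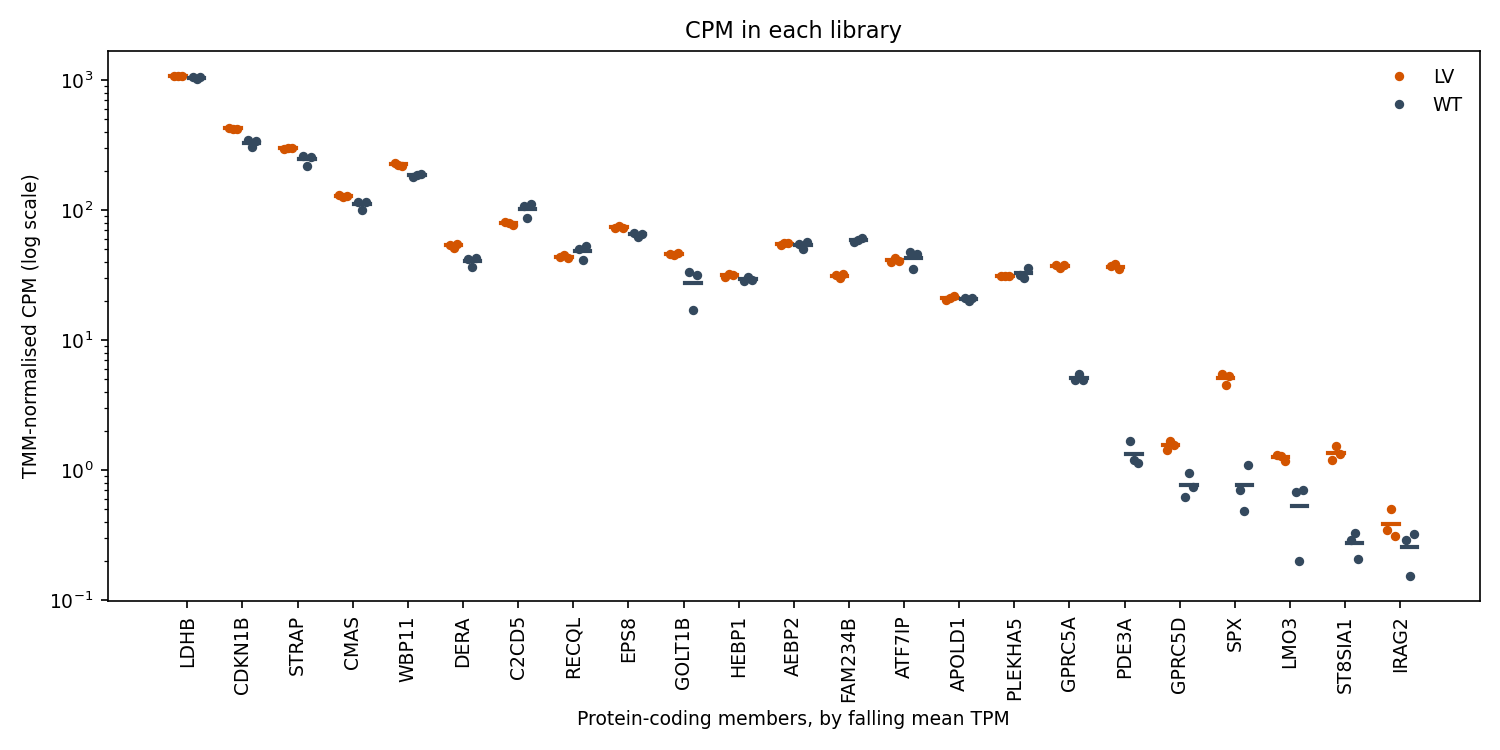
TMM-normalised CPM on a log axis in each LV (orange) and WT (dark) library for 23 protein-coding members, ordered by falling mean TPM; points are libraries and bars are group means. GPRC5A, PDE3A and SPX show the widest gaps between groups, and LDHB, the highest member, stood at 1079.6 CPM in LV and 1043 CPM in WT.

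Other membrane and signalling genes moved less. EMP1, a tetraspan membrane protein of epithelia, averaged 8.49 ± 1.31 CPM in LV and 5.57 ± 1.23 CPM in WT (log2 fold change 0.60 ± 0.17), and RERG, a Ras-like growth inhibitor that oestrogen induces, averaged 6.75 ± 0.880 CPM in LV and 4.54 ± 0.903 CPM in WT (0.56 ± 0.16). Both rose, but EMP1 did not pass without LV replicate 2 or 3 or WT replicate 1 (adjusted p up to 0.0968), and RERG did not without LV replicate 1 or 2 or WT replicate 1 (up to 0.0732). EPS8, an actin regulator downstream of the EGF receptor, had 73.2, 75.5 and 73.2 CPM in LV and 67.1, 62.2 and 65.9 CPM in WT (0.18 ± 0.07). It did not pass at the main settings (adjusted p = 0.0591 by edgeR) and passed without WT replicate 2 (0.15, adjusted p = 1.10e-04). With all libraries EPS8 also passed under a filter on CPM, RLE scaling and the GC correction (adjusted p of 0.0441 to 0.0481). ARHGDIB, an inhibitor of small GTPase cycling, spanned 2.55 to 5.19 CPM in LV and 3.00 to 3.55 CPM in WT, with overlap. PLEKHA5, a pleckstrin-homology protein, averaged 31.3 ± 0.0884 CPM in LV and 32.6 ± 3.12 CPM in WT (-0.0568 ± 0.09); without WT replicate 2 it passed as lower (-0.12, adjusted p = 0.0368).

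The membrane protein gene FAM234B (ENSG00000084444, chr12:13044284-13142521, plus strand) fell. Its RNA stood at 31.6, 30.1 and 32.2 CPM in LV, against 57.3, 59.4 and 61.2 CPM in WT, so every LV library was well under every WT library. The log2 fold change was -0.92 ± 0.07 (SE), or 1.89-fold lower in LV. The nearest members on either side that passed the test, HTR7P1 and EMP1, both rose. The second gene that fell was C2CD5 (ENSG00000111731, chr12:22448583-22544546, minus strand), a C2-domain protein of insulin-stimulated vesicle traffic. It had 80.5, 79.7 and 77.2 CPM in LV and 108, 86.9 and 112 CPM in WT (-0.37 ± 0.10); WT replicate 2 was nearest to LV. The change was -0.47 without that library, and the call was lost without any 1 of the other 5 libraries (adjusted p of 0.0512 to 0.0744), with values of -0.38 to -0.30.

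The sequences below show the windows before the starts of both members that fell, and of SPX and CDKN1B, which rose by the largest fold and had the highest level among the rising members whose RefSeq start lay within 5000 bases of the start in the count files. They are the 250 bases upstream of the RefSeq start (GRCh38.p14), written 5′ to 3′ on the gene's strand, with capitals for the GC box GGGCGG and the CCAAT box CCAAT on either strand.
SPX chr12:21527702-21527951, plus strand: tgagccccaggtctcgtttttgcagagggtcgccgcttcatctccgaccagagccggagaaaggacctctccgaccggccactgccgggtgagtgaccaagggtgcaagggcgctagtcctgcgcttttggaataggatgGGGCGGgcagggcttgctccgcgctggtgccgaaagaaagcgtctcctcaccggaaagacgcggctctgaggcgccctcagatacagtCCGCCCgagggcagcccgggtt
CDKN1B chr12:12717118-12717367, plus strand: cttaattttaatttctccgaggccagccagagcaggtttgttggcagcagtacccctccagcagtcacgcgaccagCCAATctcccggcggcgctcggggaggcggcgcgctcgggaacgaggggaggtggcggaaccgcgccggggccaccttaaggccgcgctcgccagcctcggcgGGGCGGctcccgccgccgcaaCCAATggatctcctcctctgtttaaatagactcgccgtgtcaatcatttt
FAM234B chr12:13044131-13044380, plus strand: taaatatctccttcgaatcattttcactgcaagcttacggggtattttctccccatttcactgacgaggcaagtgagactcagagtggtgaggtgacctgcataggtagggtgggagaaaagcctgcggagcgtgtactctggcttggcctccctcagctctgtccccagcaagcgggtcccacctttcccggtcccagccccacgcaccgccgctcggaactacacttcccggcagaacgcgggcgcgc
C2CD5 chr12:22544543-22544792, minus strand: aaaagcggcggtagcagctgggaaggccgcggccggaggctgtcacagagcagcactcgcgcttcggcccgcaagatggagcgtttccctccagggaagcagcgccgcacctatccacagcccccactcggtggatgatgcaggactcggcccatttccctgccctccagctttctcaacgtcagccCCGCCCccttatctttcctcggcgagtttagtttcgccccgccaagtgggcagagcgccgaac

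The RefSeq starts of SPX and CDKN1B lie 1645 and 2310 bases inside the starts that the count files give, and those of FAM234B and C2CD5 lie 97 and 4 bases from them. SPX held 2 GC boxes, CDKN1B held 1 GC box and 2 CCAAT boxes, C2CD5 held 1 GC box, and FAM234B held neither. Windows were found for 28 of the 45 members, of which 20 lay within 5000 bases of the start in the count files; the shares below are over all 28. The GC box GGGCGG was in 53.6% of these 28 and in 42.3% of all 27305 promoters in the table; CCAAT was in 50% and 33%, TATAAA in 17.9% and 11.1%, and TGACGTCA in 0% and 1.77%, each sought on both strands with overlaps allowed. The median number of CG dinucleotides was 16 in the member windows and 11 in all windows, and the median GC content was 56.4% and 58%. These are matches of letters and not measured binding, and another motif that was sought is not reported here.

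CDKN1B (ENSG00000111276, chr12:12715058-12722371, plus strand) had 430.5, 422 and 424 CPM in LV, against 344, 308 and 340.5 CPM in WT. The groups did not overlap, and the LV libraries differed from each other by less than the WT libraries did. The log2 fold change was 0.36 ± 0.07 (SE), 1.29-fold higher in LV, and per length the gene was the second most abundant member, at 532 ± 6.50 TPM in LV and 426 ± 42.7 TPM in WT. AC008115.3, a sense-intronic RNA inside CDKN1B on the same strand, averaged 2.12 ± 0.0815 CPM in LV and 1.20 ± 0.356 CPM in WT (0.82 ± 0.21), and reads of unspliced CDKN1B would count for it too.

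The splicing factor gene WBP11 had 232, 224 and 220.0 CPM in LV and 181, 187 and 189 CPM in WT (log2 fold change 0.28 ± 0.06), with no overlap. STRAP, a component of the complex that assembles spliceosomal particles, had 298, 302 and 300.2 CPM in LV and 263, 219 and 258 CPM in WT (0.28 ± 0.08). Both rose; WBP11 lost its call without LV replicate 1 (adjusted p = 0.0530) and under the GC correction (adjusted p = 0.0607), and STRAP lost it without any 1 of the LV libraries (adjusted p of 0.0703 to 0.0782). DDX47, a helicase of ribosomal RNA processing, averaged 3.78 ± 0.618 CPM in LV and 2.53 ± 0.663 CPM in WT (0.58 ± 0.20) and did not pass (adjusted p = 0.0503 by edgeR). It passed without any 1 of the WT libraries (0.39 without WT replicate 2, adjusted p = 0.0163) and with RLE scaling, DESeq2, limma-voom, no filter, the GC correction and the replicate block (adjusted p of 0.00235 to 0.0469). Its exons overlap those of APOLD1 on the same strand, so reads in the shared exons cannot be assigned to either gene, and the values of both are uncertain. APOLD1 itself, an early response gene of endothelium, averaged 21.0 ± 0.658 CPM in LV and 20.6 ± 0.651 CPM in WT (0.0252 ± 0.08).

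AEBP2, a cofactor of Polycomb repressive complex 2, averaged 55.0 ± 0.996 CPM in LV and 54.1 ± 3.35 CPM in WT (log2 fold change 0.0235 ± 0.07, and -0.0199 after a correction for GC content). ATF7IP, the partner of the histone methyltransferase SETDB1, averaged 41.1 ± 1.38 CPM in LV and 43.1 ± 6.88 CPM in WT (-0.0683 ± 0.12). RECQL, a DNA helicase, had 43.4, 44.9 and 43.2 CPM in LV and 49.9, 41.3 and 53.1 CPM in WT (-0.13 ± 0.10). For ATF7IP and RECQL, WT replicate 2 was the lowest WT library and the only one at or under the LV level; without it both passed as lower in LV (-0.20, adjusted p = 5.23e-05, and -0.24, adjusted p = 2.40e-06, by edgeR). Neither passed at the main settings, and both passed as lower after the GC correction (-0.11, adjusted p = 0.0418, and -0.16, adjusted p = 0.0096). The histone genes H4C16 and H2AJ averaged 1.01 ± 0.139 and 0.267 ± 0.171 CPM in LV, and 0.855 ± 0.243 and 0.304 ± 0.128 CPM in WT. Polyadenylated RNA was selected, and most replication-dependent histone mRNA carries no poly(A) tail. LMO3, a LIM-only transcription cofactor, had 1.30, 1.29 and 1.17 CPM in LV and 0.679, 0.198 and 0.701 CPM in WT (1.23 ± 0.36). It rose, but lost its call without any 1 of the LV libraries (adjusted p of 0.0536 to 0.0733).

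LDHB (ENSG00000111716, chr12:21635342-21757857, minus strand), the lactate dehydrogenase subunit that favours the formation of pyruvate, was the most abundant member. It had 1079, 1082 and 1078 CPM in LV and 1056, 1025 and 1049.9 CPM in WT; the groups did not overlap, but the gap between them was narrow. The log2 fold change was 0.0492 ± 0.06 (SE) and did not pass. Per length LDHB stood at 1271 ± 7.49 TPM in LV and 1264 ± 73.3 TPM in WT. Its partner subunit LDHA, on chromosome 11 and named after its values were seen, averaged 885 ± 10.1 CPM in LV and 629 ± 38.7 CPM in WT (0.49 ± 0.07, adjusted p = 4.01e-04 by edgeR).

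DERA, an aldolase that breaks down deoxyribose phosphate, rose. It had 54.3, 51.5 and 55.1 CPM in LV and 42.0, 36.7 and 43.2 CPM in WT (log2 fold change 0.40 ± 0.08). CMAS, the enzyme that activates sialic acid for transferases such as ST8SIA1, had 131, 126 and 129 CPM in LV and 115, 101 and 116 CPM in WT (0.22 ± 0.08). The groups of CMAS did not overlap. By edgeR its adjusted p was 0.0502 at the main settings and 4.30e-06 without WT replicate 2. With all libraries CMAS passed under a filter on CPM, RLE scaling, DESeq2, limma-voom and the GC correction (adjusted p of 5.65e-04 to 0.0465). HEBP1, a haem-binding protein, averaged 31.6 ± 0.874 CPM in LV and 29.3 ± 1.15 CPM in WT (0.11 ± 0.07) and passed only without WT replicate 2 among the fits that left out 1 library (0.13, adjusted p = 0.0141).

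PYROXD1, an oxidoreductase, and GOLT1B, a protein of Golgi transport, rose and flank RECQL. PYROXD1 had 49.2, 50.4 and 50.5 CPM in LV and 30.4, 19.6 and 32.1 CPM in WT (log2 fold change 0.87 ± 0.16), and GOLT1B had 45.7, 45.1 and 46.7 CPM in LV and 33.2, 16.9 and 31.8 CPM in WT (0.75 ± 0.21). In both, WT replicate 2 was far under the other WT libraries, and these are the members lowest in GC, at 35.0% and 33.0%. Without that library the changes were 0.68 and 0.50. GOLT1B lost its call without any 1 of the LV libraries (adjusted p of 0.0534 to 0.0617). Exons of PYROXD1 and RECQL overlap on opposite strands, so part of their reads could be exchanged; their log2 fold changes differed in sign.

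Values of the 12 members with a mean under 1 TPM rest on few reads. MGP, an inhibitor of calcification in matrix, averaged 0.495 ± 0.0886 CPM in LV and 0.123 ± 0.0186 CPM in WT (log2 fold change 2.02 ± 0.33) and overlaps C12orf60 on the opposite strand, a more abundant gene which averaged 3.02 ± 0.156 CPM in LV and 3.07 ± 0.0490 CPM in WT. MGP rose and C12orf60 did not pass. SLCO1A2, a transporter of organic anions, averaged 1.10 ± 0.314 CPM in LV and 0.553 ± 0.307 CPM in WT (1.0 ± 0.40). It did not pass (adjusted p = 0.0804 by edgeR) but passed without WT replicate 2, with a smaller value of 0.63 (adjusted p = 0.0441), and also with DESeq2, the GC correction, no filter and the replicate block (adjusted p of 0.00137 to 0.0388). GUCY2C, the guanylate cyclase receptor of the gut, PLBD1, a phospholipase B-like protein, and IRAG2, an endoplasmic reticulum protein of lymphoid cells, each averaged under 0.6 CPM in both groups and did not pass.

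Of the 10 members that are not protein coding, 9 were tested, and 3 of these rose. Of all genes tested, 17.5% were called higher and 21.3% lower, and nothing is read from this count. HTR7P1, a pseudogene of a serotonin receptor, averaged 14.6 ± 0.628 CPM in LV and 11.2 ± 0.251 CPM in WT (log2 fold change 0.39 ± 0.08), and RPL13AP20, a ribosomal protein pseudogene, averaged 0.625 ± 0.144 CPM in LV and 0.176 ± 0.0322 CPM in WT (1.78 ± 0.32). The third was AC008115.3. EEF1A1P16 and SUPT16HP1, processed pseudogenes with 0.51 ± 0.22 and 0.34 ± 0.24 on the log2 scale, did not pass; EEF1A1P16 passed without WT replicate 2 (0.50, adjusted p = 0.0431) and without LV replicate 3 (0.71, adjusted p = 0.0364). Reads of RPL13AP20, EEF1A1P16 and SUPT16HP1 could come from their parent genes, and their counts are uncertain. ENSG00000255621, which overlaps HTR7P1 on the same strand, ENSG00000261324 and the processed pseudogene ENSG00000256663 had changes of 0.26, -0.0891 and -0.0588 and did not pass. ENSG00000256973, at 0.177 ± 0.0531 CPM in LV and 0.202 ± 0.121 CPM in WT, was removed by the filter on low counts and had no test.

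Levels differed over several orders between members. Averaged over all libraries, 5 members stood at 100 TPM or more (LDHB, CDKN1B, STRAP, CMAS and WBP11), 13 between 10 and 100 TPM, 15 between 1 and 10 TPM and 12 under 1 TPM. The 3 abundant genes after CDKN1B were STRAP, at 477 ± 3.40 TPM in LV and 404 ± 54.9 TPM in WT, CMAS, at 224 ± 4.31 TPM in LV and 199 ± 23.7 TPM in WT, and WBP11, at 149 ± 4.62 TPM in LV and 126 ± 5.57 TPM in WT. None of these abundant members changed by more than 1.29-fold, whereas PDE3A, SPX and ST8SIA1 were each under 1 TPM in WT.

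By position, the members form stretches separated by gaps of more than 1 Mb. The counts that follow stand against 17.5% of all genes tested called higher and 21.3% called lower, and nothing is read from them. From CDKN1B to EMP1, 13 members had a median log2 fold change of 0.39, with 7 that rose and 1 that fell. From ATF7IP to EEF1A1P16, 17 members had a median of 0.27, with 6 that rose and 0 that fell. From PLEKHA5 to ENSG00000256973, 13 tested members had a median of 0.22, with 5 that rose and 1 that fell, and IRAG2 lay alone at the far end with 0.52.

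At the near edge, which was drawn with this contrast in view, the fitted values changed sign. The first member inside was CDKN1B at 0.36 on the log2 scale. The tested genes just outside were GPR19 at -0.68, CREBL2 at -0.0751 and DUSP16 at -0.72. GPR19 and DUSP16 passed as lower in LV (adjusted p = 0.0103 and 2.80e-05 by edgeR), and CREBL2 did not pass at the main settings. GPR19 lost its call without LV replicate 1 (adjusted p = 0.0526). At the far edge the last member inside was IRAG2 at 0.52. The tested genes just outside included DNAI7 at 0.20 and ETFRF1 at 0.53, neither of which passed at the main settings. Without WT replicate 2, CREBL2 passed as lower (-0.15, adjusted p = 1.13e-05 by edgeR) and ETFRF1 as higher in LV (0.28, adjusted p = 9.49e-05). After the GC correction CREBL2 also passed as lower (-0.13, adjusted p = 0.0069). ETFRF1 also passed as higher with DESeq2, the GC correction, no filter, the replicate block and without WT replicate 3 (adjusted p of 4.04e-05 to 0.0248).

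The rest of the short arm was not alike on both sides. The 159 tested genes before the stretch had a median log2 fold change of 0.0299, with 38 that rose and 39 that fell, and the 65 tested genes between the stretch and the centromere region had a median of 0.29, with 20 that rose and 3 that fell. The 786 tested genes of the long arm had a median of 0.0756. Of all genes tested, 17.5% were called higher and 21.3% lower. The median GC content was 51.4% in the genes before the stretch and 40.9% in those after it. The part of GC content in the difference between the sides was not tested. A running median over 15 neighbouring genes reached 0.75 inside the stretch, above 98.9% of the 1046 windows of the chromosome. It held this value in every window from that centred on SLCO1A2 to that centred on ABCC9, with GOLT1B as the middle gene. The highest running median was 0.79 on the long arm, centred on KRT7. The windows inside the stretch also contain the genes left out of the members. Those were KCNJ8 (2.28), ABCC9 (1.72), BCAT1 (0.89), MGST1 (0.52), ETNK1 (0.50) and SOX5 (-0.22), all as log2 fold changes, and BHLHE41 (0.61) lies beyond the stretch. SOX5 did not pass with all libraries and passed as lower without WT replicate 2 (-0.35, adjusted p = 0.0407 by edgeR). ETNK1 passed (adjusted p = 0.0455) but lost its call without any 1 of the LV libraries (0.0907 to 0.122). It also lost it with a filter on CPM, library size alone and TPM. ABCC9 lost its call without LV replicate 1 (adjusted p = 0.0747). On TPM with no filter ABCC9, MGST1 and BCAT1 did not pass, and MGST1 did not with a TPM pseudocount of 0.1.

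**Figure D3:**
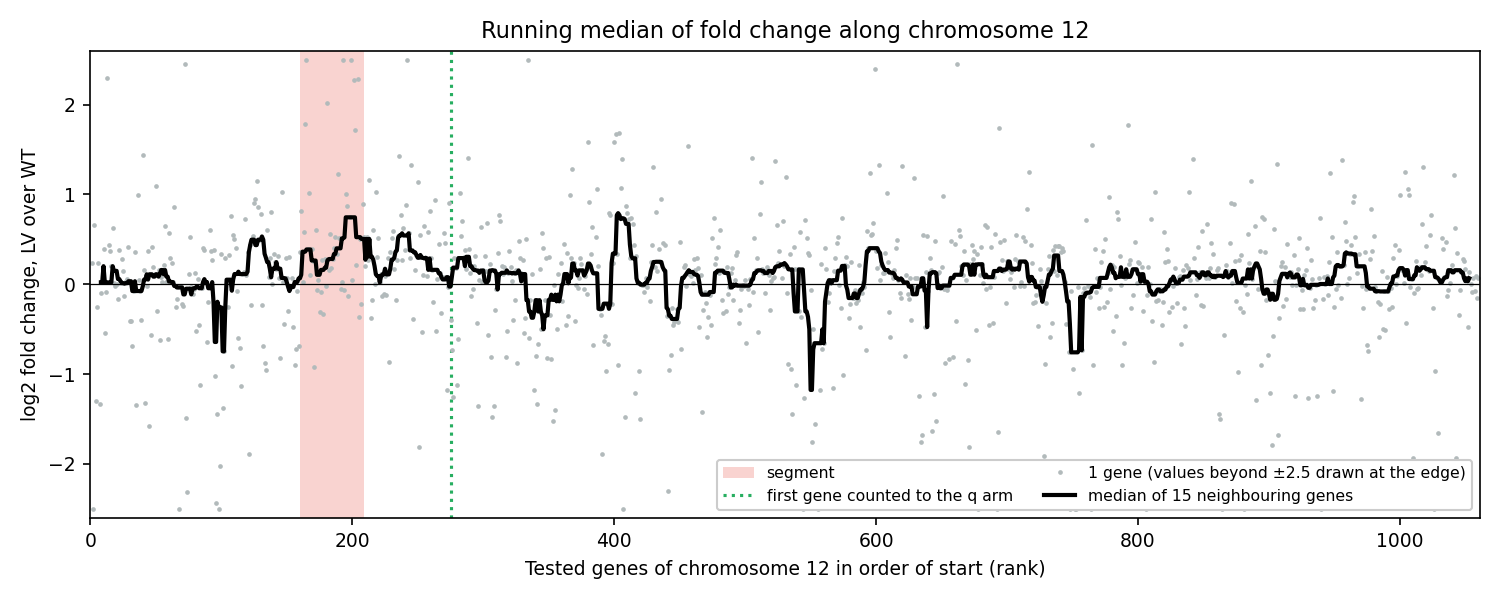
Log2 fold change (LV over WT) of each tested gene of chromosome 12 in order of start (grey points) and the median of 15 neighbouring genes (black line); the stretch described here is shaded and the dotted line marks the first gene counted to the long arm. The line climbs to 0.75 inside the stretch, stands at 0.79 at its highest on the long arm and at -1.18 at its lowest, around DCTN2.

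The same contrast chose the stretch, so the values by library are a description. The median over the 44 members of log2(CPM + 0.5) minus the mean of the WT libraries was 0.30, 0.29 and 0.21 in LV replicates 1 to 3, against 0.0382, -0.10 and 0.0442 in WT replicates 1 to 3. The same measure over the rest of chromosome 12 was 0.0674, 0.0774 and 0.0715 in LV and 0.00040, 0.0062 and -0.0015 in WT. WT replicate 2 was thus the lowest library for the members and not for the rest of the chromosome. Without it, the fitted median of the members was 0.28 and that of the rest 0.0561; of 45 tested members 25 were then called higher and 5 lower in LV, where 28.8% and 31.0% of all genes tested in that fit were. After a correction for GC content the medians were 0.26 and 0.0963.

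**Figure D4:**
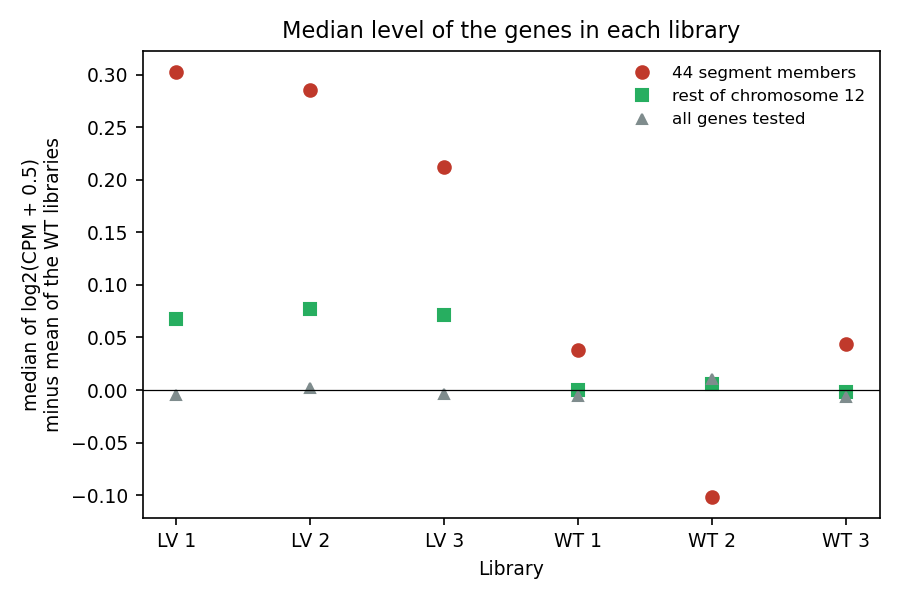
Median over genes of log2(CPM + 0.5) minus the mean of the WT libraries, in each library, for the 44 members (circles), the rest of chromosome 12 (squares) and all genes tested (triangles). The members stand at 0.21 to 0.30 in the LV libraries and at -0.10 to 0.0442 in the WT libraries, with WT replicate 2 the lowest.

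Elsewhere in the genome, relatives of genes of the stretch changed in both directions. Some of them are relatives of stretch genes that are not members, such as PTPRO. Of 49 listed paralogs, 46 were tested; 11 rose, 14 fell and 21 did not pass, where 17.5% of all genes tested were called higher and 21.3% lower, with a median log2 fold change of -0.00037, near the -0.0075 of all genes tested. ST8SIA6, a relative of ST8SIA1 that stayed under 1 CPM in both groups, fell (0.0760 ± 0.0350 CPM in LV and 0.531 ± 0.129 CPM in WT, -2.87). Among called paralogs with at least 1 CPM in the higher group, the largest changes were in PTPRH, a receptor tyrosine phosphatase related to PTPRO, a gene of the stretch under the count minimum (6.28 ± 0.362 CPM in LV and 0.862 ± 0.123 CPM in WT, 2.85), SLCO2A1, a prostaglandin transporter related to SLCO1A2 (7.46 ± 0.932 CPM in LV and 1.24 ± 0.101 CPM in WT, 2.59), and ARHGDIG, a relative of ARHGDIB (5.01 ± 0.384 CPM in LV and 22.9 ± 4.76 CPM in WT, -2.20). Of 20 listed kinase inhibitors and partners of p27, 19 were tested; 5 rose, 5 fell and 9 did not pass, against the same shares, with a median of 0.0960. CDKN1A, the gene of the related inhibitor p21, averaged 201 ± 6.25 CPM in LV and 114 ± 11.7 CPM in WT (0.82), CCND1, the cyclin D1 gene, averaged 4498 ± 36.0 CPM in LV and 2843 ± 91.5 CPM in WT (0.66), and CDKN1C, the gene of p57, averaged 4.02 ± 0.287 CPM in LV and 6.24 ± 0.811 CPM in WT (-0.62).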

How the data were processed

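Polyadenylated RNA of 6 libraries, 3 LV and 3 WT, was sequenced as paired reads; groups and replicate numbers come from the sample titles. Per the submitters' processing notes, Trimmomatic 0.36, STAR 2.5.2b, featureCounts of Subread 1.5.2 and GRCh38 were used; the sources used here do not give the annotation release, the strand setting or how read pairs were counted. The authors deposited raw counts per gene and a table of TPM, which equals the counts rescaled by gene length within a relative difference of 4.82e-05; its 391182 rows without a gene were left out.

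LV was set against WT on these counts in edgeR 4.0.16 under R 4.3.3, with filterByExpr, TMM, robust quasi-likelihood, group as the only term, Benjamini-Hochberg adjustment over 19255 genes, threshold 0.05. CPM values are TMM-normalised; a ± is an SD (n = 3) for levels and an SE for log2 fold changes, and adjusted p-values are from this test. TPM serves levels between genes. Symbols matched 98.1% of identifiers; biotype and GC content are from GENCODE 29, promoter windows from RefSeq. Members, bounds, lists and tests were chosen with earlier results of these data known. The named genes are the 12 protein-coding members highest in TPM, the 6 largest rises and 6 largest falls among members with at least 1 CPM in the higher group, the first and last 3 members, the 3 tested genes beyond each end (1 of them, and 2 marker genes, are not reported here), called members against the median's direction, and up to 3 called genes of each list; all other members were added after their values were seen. Same-numbered libraries did not deviate together (r of -0.0084 to 0.0722). A chi-square over 14650 genes found every pair of replicates to differ by more than counting noise. Per degree of freedom it was 2.26 to 3.15 in the pairs without WT replicate 2. In the pairs with that library it was 55.7 and 62.7. Each library was counted as 1 replicate, but this measure cannot show whether the libraries were separate cultures. The fitting step was tested on simulated data. Alternatives were RLE, upper-quartile or no scaling factors, other filters, DESeq2 1.42.0, limma-voom (limma 3.58.1), log2 TPM with a pseudocount of 1 or 0.1, each library left out, a replicate block and a GC correction, the last added after the data were seen.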

Additional observations from a re-analysis of the deposited data

How the results depend on the processing

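The median log2 fold change of the rest of chromosome 12 moved beyond its small spread between libraries: 0.0907 with DESeq2, 0.0963 with the GC correction, 0.0899 with RLE, 0.0671 with upper-quartile scaling, 0.0275 with library size alone, 0.0618 with no filter, 0.0870 with the replicate block, 0.0459 on TPM, 0.0539 with a TPM pseudocount of 0.1 and 0.0108 on TPM with no filter, and 0.0561 to 0.0878 with 1 library left out. The members' median was 0.18 on TPM with no filter and 0.20 over members of at least 10 CPM, and 0.27 to 0.38 with 1 library left out. Members called higher numbered 11 under each of the 3 TPM settings, and 13 to 25 with 1 library left out. EMP1, RERG, STRAP and GOLT1B lost the call under each of the 3 TPM settings, and STRAP also with library size alone. DERA, LMO3 and AC008115.3 lost it on TPM with no filter. C2CD5 lost its call as lower on TPM with no filter and with a TPM pseudocount of 0.1. The TPM settings tested 33 members with the filter and 45 without it. Members called lower numbered 4 with the GC correction, 1 with a TPM pseudocount of 0.1, 1 on TPM with no filter and 1 to 5 with 1 library left out. Genes called in either direction numbered 10984 with the GC correction, 6456 on TPM, 6358 with the pseudocount of 0.1 and 6027 on TPM with no filter. Nothing is read from the counts of members. All genes called ranged from 5600 without LV replicate 1 to 11870 without WT replicate 2. The libraries' numbers do not pair them; the replicate block called 21 members higher and 2 lower. Signs near 0 turned round: APOLD1 to -0.0108 (GC correction), -0.0135 (TPM, with and without filter), -0.0145 (pseudocount 0.1) and -0.0280 (library size); AEBP2 to -0.0199, -0.0142, -0.0145 and -0.0304 in the same order; PLBD1 to -0.0216 (TPM with no filter) and -0.0064 (library size); LDHB to -0.0035 (library size); and ENSG00000256663 to 0.14 (GC correction). With 1 library left out, PLBD1 ran from -0.30 to 0.20, C12orf60 ran from -0.0663 to 0.0128, DNAI7 ran from -0.12 to 0.47, ENSG00000261324 ran from -0.28 to 0.23, ARHGDIB ran from -0.11 to 0.38, ENSG00000256663 ran from -0.19 to 0.17, ATF7IP ran from -0.20 to 0.0080, H2AJ ran from -0.83 to 0.0026, APOLD1 ran from -0.0017 to 0.0503, AEBP2 ran from -0.0272 to 0.0599, PLEKHA5 ran from -0.12 to 0.0198, SOX5 ran from -0.35 to 0.0225. Over 44 members, 656 of 760 values kept their direction and side of the threshold, 36 gained and 40 lost a call, and 28 changed sign. The causes were not tested. Low counts limit the members under 1 TPM.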
